A study of Saccharomyces cerevisiae with 10 samples.

Results

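The 10 genes described here are those of the de novo purine (ADE) pathway of budding yeast and of its activator. They are ADE4, ADE5,7, ADE8, ADE6, ADE2, ADE1, ADE13, ADE16, ADE17 and BAS1, chosen by their systematic names. All 10 were found among the 6608 features of the rich medium table and among the 6190 features of the synthetic medium table. The cells were of the 74D694 background, in which ADE1 carries a nonsense (UGA) allele that serves as the reporter of the prion [PSI+], and every group compared here shares that allele. In rich medium (YPD) there were 2 ribosome footprint libraries and 1 mRNA library from [PSI+] cells, and 2 footprint libraries and 1 mRNA library from cells free of the prion ([psi-]). In synthetic medium without uracil (YNB with 2% glucose) there were 2 footprint libraries from [PSI+] cells that overexpressed SUP35-Cter and 2 from [PSI+] cells. Per the labels, cultures were kept at 30 °C, harvested at an OD600 between 0.6 and 0.8, and given cycloheximide, which halts translating ribosomes. SUP35-Cter is the C-terminal part of Sup35, the termination factor eRF3, without its prion-forming domain, and the sources used here do not name the promoter that drives it.

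De novo synthesis builds the purine ring on phosphoribosyl pyrophosphate (PRPP) and ends at inosine monophosphate (IMP), from which AMP and GMP are made. In yeast most ADE genes are activated by the Myb-type factor Bas1 together with Pho2, an interaction that the intermediates SAICAR and AICAR promote, and adenine in the medium represses them. The enzyme encoded by ADE1 makes SAICAR, and cells without it are adenine auxotrophs that turn red from an oxidized pathway intermediate. In [PSI+] cells part of the Sup35 protein is aggregated and ribosomes read through some stop codons, so that strains with a nonsense allele of ADE1 can grow without adenine and stay white or pink. A footprint is the piece of mRNA shielded by a ribosome. The footprint counts here are totals per gene and do not show where on ADE1 the ribosomes lay, so readthrough of its nonsense codon was not measured.

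The genes lie on 7 chromosomes of the RefSeq R64 assembly, the build of the YNB experiment (sacCer3), and no other annotated gene overlaps any of them. ADE4 (YMR300C), for the PRPP amidotransferase of the committed step, is at chrXIII:865559-867091, and ADE5,7 (YGL234W), for the bifunctional GAR and AIR synthetase, at chrVII:56482-58890. ADE8 (YDR408C, GAR transformylase) is at chrIV:1288215-1288859, ADE6 (YGR061C, FGAM synthetase) at chrVII:611889-615965 and ADE2 (YOR128C, AIR carboxylase) at chrXV:564476-566191. ADE1 (YAR015W, SAICAR synthetase) is at chrI:169375-170295 and ADE13 (YLR359W), for the adenylosuccinate lyase that acts in this pathway and again on the way to AMP, at chrXII:844282-845730. The isozymes of AICAR transformylase and IMP cyclohydrolase are encoded by ADE16 (YLR028C) at chrXII:199540-201315 and ADE17 (YMR120C) at chrXIII:507502-509280. BAS1 (YKR099W) is at chrXI:635851-638286. The YPD reads were mapped to another build, for which no coordinates are given here.

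In YPD the footprint libraries held between 2497170 and 3579039 reads assigned to genes and the mRNA libraries 5494957 ([PSI+]) and 2480012 ([psi-]). The [PSI+] footprint libraries differed from each other far more than counting noise allows, while the [psi-] libraries came close to it (chi-square over df 1.27). Among the 10 genes, the higher [PSI+] library stood 1.03 to 1.41 times above the lower one, and the higher [psi-] library 1.00 to 1.09 times above the lower one. SUP35 itself had 306.2 and 296.3 CPM in [PSI+] footprints, against 644.6 and 633.6 CPM in [psi-] footprints. Its mRNA went the other way, with 492.6 CPM in the single [PSI+] library, against 387.3 CPM in the single [psi-] library.

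The first comparison asked whether ribosomes on the purine genes differed between [PSI+] and [psi-] cells in YPD. Of the 10 genes 6 fell in [PSI+] footprints, 0 rose and 4 did not pass. Over all 5135 features tested, 34.6% were called, 18.9% as lower and 15.7% as higher in [PSI+]. The median log2 fold change of the 10 genes was -0.54, against 0.02 over all features tested. The genes that fell were ADE2, ADE17, ADE8, ADE6, ADE5,7 and ADE16, all of them enzymes. A call is an adjusted p under 0.05 by the quasi-likelihood test of edgeR, with the Benjamini-Hochberg method over all features. Levels are CPM, counts per 1e6 reads of a library after TMM scaling.

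ADE2 fell most of the 10. It had 273.2 and 285.6 CPM in the [PSI+] libraries, against 669.9 and 667.1 CPM in the [psi-] libraries, and both [PSI+] values lay below both [psi-] values. The log2 fold change was -1.26 ± 0.12 (SE), a 2.39-fold lower level, with an adjusted p = 0.0019 in the edgeR quasi-likelihood fit. ADE2 was called under each of the 10 alternative settings tried, with log2 fold changes between -1.43 and -1.11 and adjusted p values of at most 0.0308. In the fits without a [PSI+] replicate the spread came from the [psi-] pair alone, so a pass there says nothing about the spread among [PSI+] cultures. AIR carboxylase acts just before the step of ADE1.

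ADE17 had 245.5 and 253.9 CPM in [PSI+], against 457.1 and 444.6 CPM in [psi-], a log2 fold change of -0.85 ± 0.12 (adjusted p = 0.00492 in the edgeR quasi-likelihood fit). Its isozyme gene ADE16 had 186.4 and 232.8 CPM in [PSI+], against 298.8 and 309.1 CPM in [psi-], a log2 fold change of -0.53 ± 0.14 (adjusted p = 0.0368 by the same edgeR test). For both genes each [PSI+] library was below each [psi-] library. The 2 genes are paralogs, and reads from stretches they share could have been counted for either, so the division between them is uncertain. Their summed level does not depend on that division, apart from reads lost to both. It was 431.9 and 486.7 CPM in [PSI+], against 755.9 and 753.8 CPM in [psi-] (means 459 ± 38.8 and 755 ± 1.48, SD, n = 2 each).

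ADE8, ADE6 and ADE5,7 also fell. ADE8, whose product adds the first formyl group, had 135.6 and 117.7 CPM in [PSI+], against 197.6 and 208.0 CPM in [psi-] (log2 -0.68 ± 0.13, edgeR adjusted p = 0.0128). ADE6, the longest of the coding regions at 4077 bases, had 342.6 and 393.2 CPM in [PSI+] and 555.0 CPM in each [psi-] library (log2 -0.59 ± 0.13, edgeR adjusted p = 0.0214). ADE5,7 had 581.0 and 682.3 CPM in [PSI+], against 925.2 and 916.7 CPM in [psi-] (log2 -0.54 ± 0.14, edgeR adjusted p = 0.0322). In each of these 3 genes both [PSI+] libraries lay below both [psi-] libraries.

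The reporter gene ADE1 had the highest mean footprint CPM of the 10 in both strains, and its difference between them did not pass. It had 662.7 and 934.5 CPM in [PSI+], against 949.6 and 988.4 CPM in [psi-], so that 1 [PSI+] library lay just under the [psi-] values and the other well under them. The log2 fold change was -0.28 ± 0.19, with a 95% interval from -0.75 to 0.20 and an adjusted p = 0.3 in the edgeR quasi-likelihood fit. The value rested on which [PSI+] library was used: it was -0.53 without [PSI+] replicate 2 and -0.05 without [PSI+] replicate 1. The fit without replicate 2 was the 1 of 10 alternatives that called ADE1. In a fit with a single [PSI+] library the spread comes from the [psi-] pair alone, which differed far less than the [PSI+] libraries, so a pass there says nothing about the spread among [PSI+] cultures.

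For ADE4 and ADE13 the estimates lay near 0. ADE4 had 239.9 and 294.0 CPM in [PSI+], against 248.8 and 258.3 CPM in [psi-], with a log2 fold change of 0.08 and a 95% interval from -0.27 to 0.42. ADE13 had 232.0 and 194.5 CPM in [PSI+], against 199.4 and 217.6 CPM in [psi-], with a log2 fold change of 0.03 and an interval from -0.31 to 0.37. The groups overlapped in both genes, and the sign changed with the setting (ADE4 -0.10 and ADE13 -0.14 with DESeq2). ADE4 passed under 1 of the 10 alternatives, without [PSI+] replicate 1 (0.21), where again the [psi-] pair alone gave the spread.

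BAS1, the activator, was the gene with higher values in [PSI+]. It had 68.61 and 93.19 CPM in [PSI+], against 55.35 and 55.47 CPM in [psi-], and did not pass (log2 0.55 ± 0.18, adjusted p = 0.0599 in the edgeR quasi-likelihood fit). It passed under 3 of the 10 alternatives: with upper-quartile factors (log2 0.70) and without either [PSI+] replicate (0.75 and 0.32). In the fits without a [PSI+] replicate the [psi-] pair alone gave the spread. Over all 10 genes, both [PSI+] libraries were below both [psi-] libraries in 7, above them in 1 and mixed in 2. Among all features tested, 36.4% were lower in this sense and 36.4% higher.

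**Figure D1:**
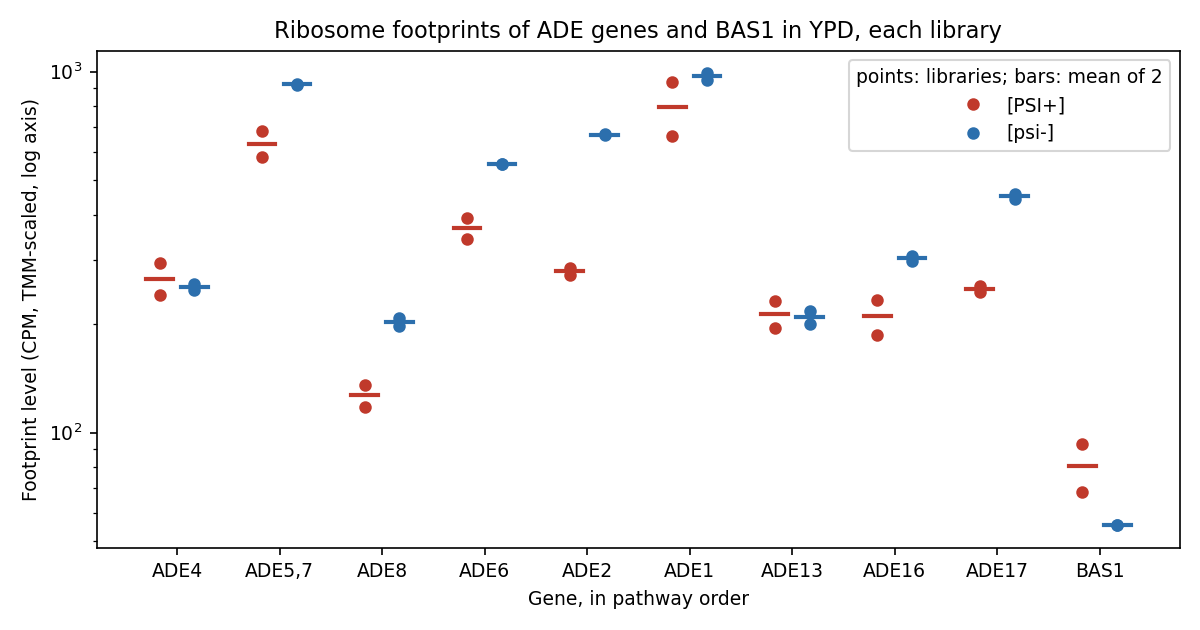
Footprint level (CPM after TMM scaling, log axis) of each gene in each YPD library, with [PSI+] (red) left of [psi-] (blue). Points are libraries and bars are means of 2. ADE2 stands at 273.2 and 285.6 CPM in [PSI+], against 669.9 and 667.1 CPM in [psi-], while ADE4 and ADE13 overlap between the strains.

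Most of these calls depended on having both [psi-] libraries, and calls over all features also became fewer without both. Where only 1 [psi-] library was left, the spread came from the [PSI+] pair alone. The [PSI+] libraries differed far more than counting noise allows, while the [psi-] pair came close to it. The calls made with both pairs thus rest partly on the small spread of the [psi-] pair. Without either [psi-] replicate, or with that pair summed to 1 library, 1 of the 10 genes was called (ADE2), and the log2 fold changes of the other 5 stayed between -0.88 and -0.51. With upper-quartile factors, which placed the all-feature median at 0.17, 5 of the 10 were called, against 2014 of 5135 features. Under these factors ADE5,7 (-0.40) and ADE16 (-0.39) no longer passed and BAS1 did. In the authors' deposited table for this comparison, which lists genes with an adjusted p under 0.1, 6 of the 10 are present, the same 6 genes. The authors' deposited table gives them [psi-] over [PSI+] folds (the deposited direction) of 1.62 for ADE16 to 2.68 for ADE2. Of all 1791 entries there, 1321 were lower in [PSI+] and 470 higher, so most entries go the same way as these 6 genes. That table and the edgeR fit rest on the same libraries.

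For mRNA the question was whether the transcripts differed too. Each strain had a single library, which allows neither a replicate check nor a test, and the intervals below cover counting error only (95%, exact Clopper-Pearson). The ratio of CPM had a median of -0.42 on the log2 scale over 5231 features with 20 or more reads, and log2 values are given relative to that median. ADE8 and ADE13 were more than 2-fold above it and ADE2 more than 2-fold below it, which makes 3 of 10. Of all features, 21.3% lay that far above and 22.1% that far below. The median of the 10 genes was 0.23.

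ADE2 mRNA was low in [PSI+], as its footprints were. It had 74.89 CPM in [PSI+], against 226.8 CPM in [psi-], a 3.03-fold lower level (interval 2.66 to 3.45) and -1.18 relative to all features. ADE8 mRNA was high in [PSI+], opposite to its footprints, with 157.8 CPM (868 counts) in [PSI+] against 57.91 CPM (144 counts) in [psi-]. That is a ratio of 2.72 (interval 2.28 to 3.27), or 1.87 relative to all features. ADE13 had 921.6 CPM in [PSI+], against 586.7 CPM in [psi-] (ratio 1.57, interval 1.48 to 1.67, relative log2 1.07), and ADE4 had 193.2 CPM in [PSI+], against 143.2 CPM in [psi-] (ratio 1.35, relative log2 0.85). By library totals alone ADE13 was not past 2-fold (log2 0.65), nor was it relative to the median of features with 100 or more reads.

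The other genes of the pathway lay closer to the median feature. ADE6 had 750.5 CPM in [PSI+], against 1226 CPM in [psi-] (relative log2 -0.29), and ADE17 had 511.1 CPM in [PSI+], against 762.5 CPM in [psi-] (-0.16). ADE5,7 had 706.0 CPM in [PSI+], against 962.8 CPM in [psi-] (-0.03). ADE1, ADE16 and BAS1 stood above the median feature by 0.35, 0.37 and 0.12, but by library totals alone their log2 ratios were -0.07, -0.05 and -0.30, so no direction can be given for them. ADE1 mRNA had 173.0 CPM in [PSI+], against 181.4 CPM in [psi-] (ratio 0.954, interval 0.852 to 1.07).

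Translational efficiency is the footprint level per level of mRNA, and its change between strains was fitted in 1 model over the footprint and mRNA libraries. Since mRNA had no replicates, the calls assume that mRNA libraries vary like footprint libraries, and the footprint libraries are those of the first comparison. Of the 10 genes 4 fell in [PSI+], 0 rose and 6 did not pass, where 38.4% of 5437 features tested were called, 20.5% as lower and 17.9% as higher. The estimate was below 0 for 9 of 10, with a median log2 change of -0.66, against 0.02 over all features. The genes that fell were ADE8, ADE13, ADE16 and ADE17.

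ADE8 fell by far the most, with a log2 change of -2.55 ± 0.23 (SE), or 5.85-fold lower in [PSI+], and an adjusted p = 0.00322 in the edgeR quasi-likelihood fit. It was called under each of the 10 alternatives, between -2.84 and -2.28 (adjusted p at most 0.00816). As for ADE2, the passes without a [PSI+] replicate rest on the spread of the [psi-] pair alone. Relative to the median feature, the log2 footprint to mRNA ratio of ADE8 was -0.36 in [PSI+] and 1.96 in [psi-]. The change joins a lower footprint level with a higher mRNA level in the single [PSI+] mRNA library, and the [psi-] side rests on 144 mRNA counts. Its larger part is the mRNA difference (relative log2 1.87, against -0.68 in footprints). Whether that difference belongs to the strains or to the single mRNA libraries cannot be told apart. ADE13 changed by -1.04 ± 0.24 (edgeR adjusted p = 0.0235), with mRNA above and footprints level between strains.

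ADE16 (-0.91 ± 0.26, edgeR adjusted p = 0.0414) and ADE17 (-0.70 ± 0.20, edgeR adjusted p = 0.0422) passed narrowly. ADE4 stood at -0.78 (adjusted p = 0.0554 by edgeR), ADE1 at -0.63 with a 95% interval from -1.47 to 0.21, and ADE5,7 at -0.52. ADE2 stood at -0.08 with an interval from -0.59 to 0.43, its footprints and mRNA being lower in [PSI+] by similar amounts. BAS1 stood at 0.44 (interval -0.38 to 1.26). Only the ADE8 call remained under upper-quartile scaling, where the all-feature median stood at 0.29, and also without either [psi-] replicate or with that pair summed. With RLE factors ADE8 and ADE13 remained. With DESeq2, and with 1 subtracted from every count, ADE17 did not pass, while without the filter on low counts ADE4 did.

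**Figure D2:**
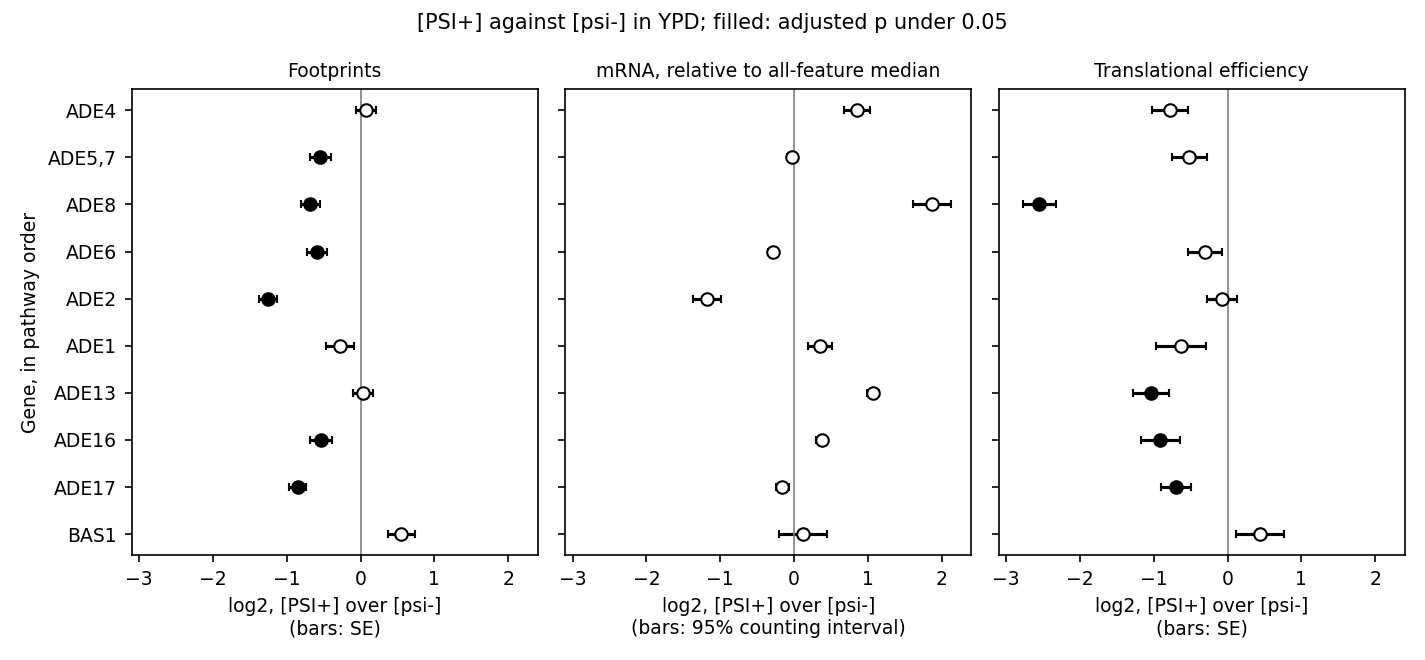
Log2 change of each gene, [PSI+] over [psi-] in YPD, in footprints (left, bars SE), mRNA relative to the median of all features (middle, bars 95% counting interval) and translational efficiency (right, bars SE). Filled points passed an adjusted p under 0.05, and mRNA was not tested. ADE8 stands at -0.68, 1.87 and -2.55, and ADE2 at -1.26, -1.18 and -0.08.

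**Figure D3:**
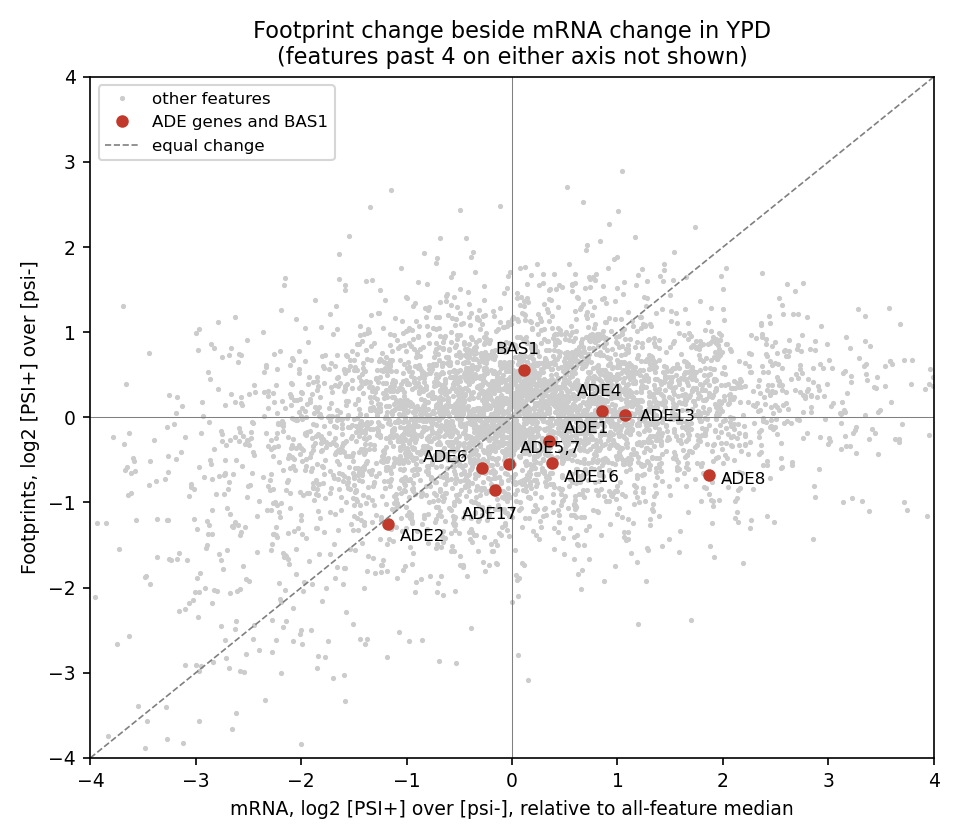
Footprint log2 change against mRNA log2 change relative to the median of all features, [PSI+] over [psi-] in YPD, for other features (grey, those past 4 on either axis not shown) and the 10 genes (red). The dashed line marks equal change. ADE2 lies near the line at -1.18 and -1.26, and ADE8 lies farthest from it of the 10 at 1.87 and -0.68.

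The footprint to mRNA ratio also set the genes apart from each other within a strain. ADE1 had the highest ratio of the 10 in both strains, 2.17 above the median feature in [PSI+] and 2.57 above it in [psi-] (log2, percentiles 85.1 and 90.0 of 4977 features). ADE2 followed in [PSI+] at 1.86, and in [psi-] ADE8 (1.96) came before ADE2 (1.71). ADE13 and ADE16 had the lowest ratios, -2.16 and -1.97 in [PSI+] and -1.34 and -1.29 in [psi-]. These are single mRNA libraries and carry no test.

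Per coding length the order of levels differed between footprints and mRNA. In [PSI+] footprints ADE1 stood first with 899 ± 249 CPM per kb, here by library totals (SD, n = 2), followed by ADE5,7 with 271 ± 40.9 and ADE8 with 202 ± 12.6. ADE8, ADE4 (180), ADE2 (168), ADE13 (151), ADE17 (145) and ADE16 (122) formed a run in which the library ranges of neighbours overlapped, with ADE6 (93.3) and BAS1 (34.4) below. In [psi-] footprints ADE1 was first with 1017 ± 26.1, and ADE2 with 377 ± 2.11 stood beside ADE5,7 with 370 ± 3.39. ADE8 (304), ADE17 (245), ADE16 (165), ADE4 (160), ADE13 (139), ADE6 (132) and BAS1 (22.0) followed.

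In mRNA, ADE13 stood first in [PSI+] with 636 CPM per kb, ahead of ADE16 with 450, while in [psi-] ADE16 (465), ADE17 (429), ADE13 (405) and ADE5,7 (400) lay close together. ADE1 had 188 in [PSI+] and 197 in [psi-]. The lowest enzyme gene per length was ADE2 in [PSI+] with 43.6, and in [psi-] ADE8 with 89.8, just under ADE4 with 93.4. BAS1 was below all enzyme genes with 16.7 in [PSI+] and 20.6 in [psi-].

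The 10 genes varied around their median profile over the 6 YPD libraries. The root mean square distance of each gene's centred log2 CPM from the median profile of the 10 ranged from 0.16 (ADE5,7) to 1.13 (ADE1). Among 3895 features with a mean of 100 or more counts, the 5 others nearest to that median profile were YGR117C, PRE2, LTP1, RPT6 and YAP5, at 0.07 to 0.11. The likeness is a description over 6 libraries that includes both library kinds.

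In YNB the comparison asked whether overexpressed SUP35-Cter, which supplies termination activity that does not join the prion, changed the footprints of [PSI+] cells. SUP35 had an authors' deposited table mean of 20432 with SUP35-Cter and 6207 without, a 3.29-fold higher level (the authors' adjusted p = 0.00529), and the table does not separate the introduced part from the resident gene. None of the 10 purine genes passed: by the authors' deposited DESeq table an adjusted p under 0.05 was reached by 0 of 10, against 1.32% of 6190 features (1.2% higher and 0.129% lower with SUP35-Cter), and an unadjusted p under 0.05 also by 0. Among the 10 genes the lowest unadjusted p in the authors' deposited table was 0.126, for ADE8. The share of all features with an unadjusted p under 0.05 is not given here. Counts per library were not analysed here, so the authors' means carry no SD.

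Of the 10, 7 had lower means with SUP35-Cter, and the median log2 ratio was -0.20, against -0.02 over 5566 features with a mean of 10 or more. In the authors' deposited table ADE8 had a mean of 7117 with SUP35-Cter and 10791 without it (0.66-fold), and ADE5,7 had 36719 with it and 47705 without it (0.77-fold). ADE1 had 11413 with SUP35-Cter and 14171 without it (0.81-fold), and ADE2 23668 with it and 27520 without it (0.86-fold). ADE13, ADE17 and ADE16 had folds of 0.88, 0.88 and 0.84 in the authors' deposited table, and ADE4, ADE6 and BAS1 had 1.04, 1.11 and 1.21. The design of this comparison differs from the YPD one in medium and in what was changed, and the difference between them was not tested.

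The levels of [PSI+] footprints in YNB and in YPD were set side by side as a share of each table's total. The tables were aligned and normalised separately, and no test was made. ADE5,7, ADE8, ADE2, ADE13 and ADE17 had shares in YNB more than 2-fold above those in YPD, where 23.6% of 4986 features lay that far above and 20.1% that far below. ADE2 had 972 CPM in YNB (the authors' mean), against 274.5 and 302.7 CPM in the YPD libraries (3.37-fold higher). ADE17 had 815 CPM in YNB, against 246.6 and 269.0 CPM in YPD (3.16-fold). ADE13 had 683 CPM in YNB, against 233.0 and 206.1 CPM in YPD (3.11-fold), and for ADE8 the values were 381 CPM in YNB and 136.2 and 124.7 CPM in YPD (2.92-fold). All 4 YNB means lay above both YPD libraries.

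ADE5,7 had 1685 CPM in YNB, against 583.6 and 723.0 in YPD (2.58-fold). ADE6, ADE16 and ADE4 were higher by 1.45, 1.34 and 1.16 times, and the YNB value of ADE4 (319 CPM) stood just above the higher YPD library (311.5). ADE1 and BAS1 went the other way. ADE1 had 501 CPM in YNB, against 665.6 and 990.3 in YPD (1.65-fold lower), and BAS1 31.7 in YNB, against 68.91 and 98.75 in YPD (2.65-fold lower). Per coding length ADE1 was therefore the fourth of the 10 in YNB [PSI+] cells with 543 CPM per kb, after ADE5,7 (700), ADE8 (591) and ADE2 (567), where in YPD it was the first. The ADE17 to ADE16 footprint ratio was 2.79 in YNB [PSI+] cells and 1.19 in YPD [PSI+] cells. Medium, experiment, aligner and build change together between these tables and cannot be told apart. Any plasmid carried only by the YNB cells would change with them.

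**Figure D4:**
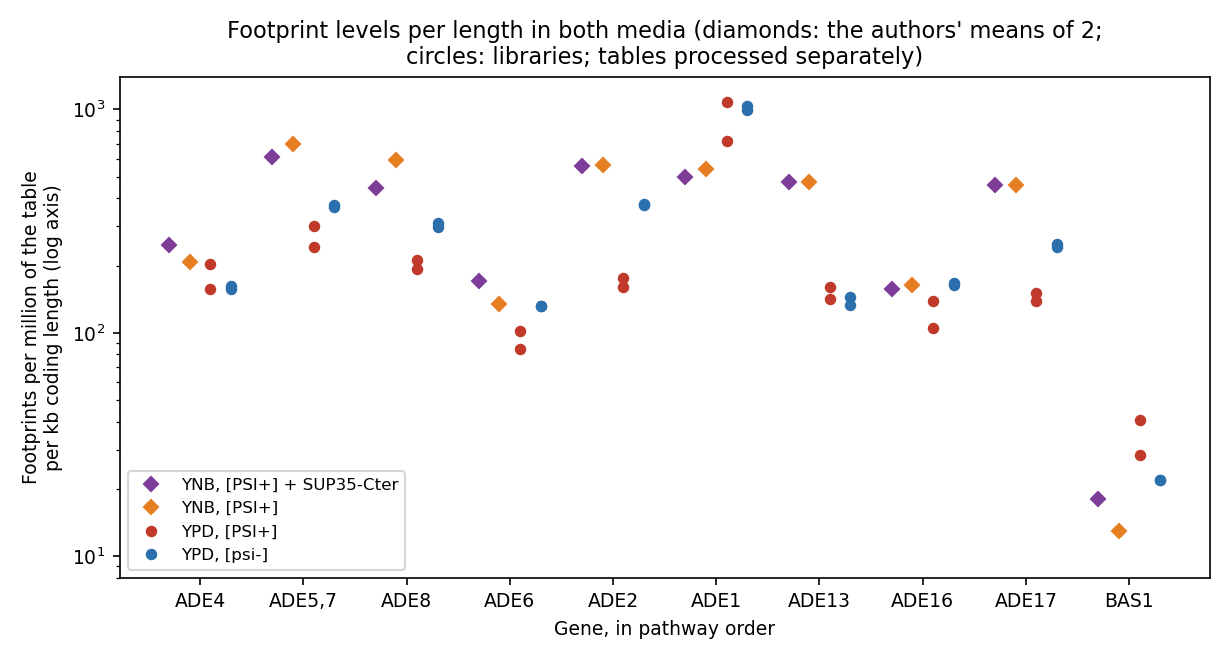
Footprint CPM per kb of coding length, by the total of each table, (log axis) for the 10 genes, in YNB with SUP35-Cter (purple) and without it (orange), and in YPD [PSI+] (red) and [psi-] (blue). Diamonds are the authors' means of 2 libraries and circles are single libraries. ADE1 is highest in YPD (899 in [PSI+], mean) and stands among ADE5,7, ADE8 and ADE2 in YNB.

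Genes that feed or leave the pathway were taken from lists of 40 related genes, of which 39 passed the filter on low counts in footprints (FCY22 did not). Of these 39, 8 rose and 6 fell in [PSI+] footprints, with a median log2 of 0.07, near the shares over all features (15.7% and 18.9%). Among 9 genes of folate-bound carbon and glycine supply 3 rose and 3 fell. MIS1, the mitochondrial C1-tetrahydrofolate synthase, rose (85.26 and 91.74 CPM in [PSI+], against 28.87 and 25.71 CPM in [psi-], log2 1.70), as did GCV1 of the glycine cleavage complex (1.12). LPD1, the dehydrogenase subunit that this complex shares with others, fell (206.2 and 201.1 CPM in [PSI+], against 518.7 and 482.2 CPM in [psi-], log2 -1.30). Of 5 PRPP synthetase genes 1 fell (PRS4, -0.64) and 0 rose.

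Beyond IMP, 2 of 5 genes fell and 0 rose. IMD2, an IMP dehydrogenase gene of the GMP branch, had 10.71 and 3.75 CPM in [PSI+], against 164.9 and 169.3 CPM in [psi-] (log2 -4.61 ± 0.35), and IMD3 fell by 0.86 on the log2 scale. The IMD genes are close copies, so the division of reads among them is uncertain. Of 5 Bas1-linked regulator and histidine genes 1 rose, HIS1 (1.07), an ATP phosphoribosyltransferase, and PHO2, the partner of Bas1, stood at 0.06. Of 15 salvage, uptake and interconversion genes tested 4 rose and 0 fell, led by XPT1 (xanthine-guanine phosphoribosyltransferase, 1.07), PNP1 (purine nucleoside phosphorylase, 0.93) and MEU1 (methylthioadenosine phosphorylase, 0.85). The [PSI+] libraries of XPT1 lay far apart, at 126.5 and 234.6 CPM, against 92.85 and 79.74 CPM in [psi-]. The calls of MIS1, LPD1 and IMD2 held under all 10 alternatives. The fits without a [PSI+] replicate took their spread from the [psi-] pair alone. The other calls named here were lost without either [psi-] replicate or with that pair summed, and PRS4 also with upper-quartile factors.

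In translational efficiency 19 of the 40 related genes fell and 6 rose in [PSI+] (median log2 -0.72), where 20.5% and 17.9% of all features did. In salvage AAH1, the adenine deaminase, had the largest change (-3.48), followed by HPT1 (-2.18) and APT1 (-2.16), which return hypoxanthine, guanine and adenine to nucleotides. AAH1 footprints rose in [PSI+] (log2 0.85), while its single mRNA libraries held 1166 counts in [PSI+] and 35 in [psi-]. HPT1 and APT1 footprints did not pass (0.27 and 0.03), while their mRNA lay 2.45 and 2.19 above the median feature. How the efficiency calls of related genes held under the alternatives is not given here. GCV3 (-2.15), MTD1 (-1.88), IMD4 (-2.001), GUA1 (-1.49), HIS1 (-1.86) and HIS7 (-1.14) fell and SHM1 (2.14) and GCN4 (1.63) rose, while PRS4, PRS5 and PRS2 fell by 1.25, 1.15 and 1.11 on the log2 scale. In mRNA 18 of the 40 lay more than 2-fold above the median feature and 9 more than 2-fold below it, against 21.3% and 22.1% of all features.

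In YNB the authors' deposited table called 0 of the 40 related genes, and 4 had an unadjusted p under 0.05. The share of all features under that unadjusted p is not given here, so whether 4 is more or less than usual cannot be told. GCV2, a glycine decarboxylase subunit gene, had the largest fold of its list, 2.01 with SUP35-Cter over without in the authors' deposited table (adjusted p = 0.085). In the other lists of the authors' deposited table the largest folds were 0.65 for PRS2, 0.48 for IMD2, 0.73 for HIS1 and 0.50 for APT2.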

How the data were processed

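The members and lists were chosen with earlier results of these data known. For YPD, the authors deposited whole-number counts per gene from HTSeq in intersection-nonempty mode, per the deposited description, and the submitters' processing notes name Bowtie 0.12.7, HTSeq 0.5.3p3 and sacCer2. No deposited count is below 1, so 1 appears to have been added to each, and the counts were tested as deposited. The 4 [PSI+] footprint columns are 2 biological and 2 technical replicates per the deposited description. Which columns are runs of a shared library is not labelled. They were paired where they agreed within counting noise (chi-square over df 1.01 and 1.0, against 19.35 or more for other pairs) and summed to 2 libraries, and which of them is replicate 1 is arbitrary. Each summed [PSI+] footprint library thus carries 2 added counts per feature, against 1 in the other libraries. 0 columns were without a sample. The sources used here do not state whether counting used the strand of these directional libraries, or how reads with several matches were treated.

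The authors' YPD table (DESeq 1.6.1, per the submitters' processing notes) holds base mean signal, a linear fold ratio, a log2 fold and p-values as deposited. For YNB the notes name cutadapt 1.2.1, Bowtie2, HTSeq, DESeq and sacCer3. The deposited table gives a mean signal per condition, a fold ratio, a log10 fold and p-values.

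For footprints the test was that of edgeR 4.0.16 under R 4.3.3 (TMM, filterByExpr with a minimum count of 10, quasi-likelihood, Benjamini-Hochberg), and translational efficiency as an interaction over all 6 libraries. All 10 members passed the filter. Scripts were tested on simulated data. Alternatives were RLE and upper-quartile factors, DESeq2 1.42.0, no filter on low counts, 1 subtracted, each replicate left out and the [psi-] pair summed. The deposited description names biological replicates for [PSI+], and the titles number the [psi-] libraries as replicates 1 and 2. The [psi-] pair came close to counting noise (chi-square over df 1.27), and whether it holds the spread between cultures was not tested. The p-values rest on the spread of 2 libraries a strain. Where a [PSI+] replicate was left out they rest on the [psi-] pair alone. Where a [psi-] replicate was left out, or that pair summed, they rest on the [PSI+] pair alone. Named genes were the 10 members, and of each related list the called genes of largest change, at most 3 per comparison (where none was called, the gene of largest change as a value), plus the 5 nearest profiles and SUP35. PHO2, as the partner of Bas1, and FCY22, as the gene not tested, are named outside this rule, after their values were seen. Names, positions and coding lengths came from RefSeq R64, which named 5908 of 6608 and 5677 of 6190 features.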

Additional observations from a re-analysis of the deposited data

How the results depend on the processing

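The number of features called moved most with the replicates. In footprints it was 1779, with 492 to 3384 when 1 replicate was left out and 533 with the [psi-] pair summed. Of the 10 purine genes 6 were called, 1 to 8 when a replicate was left out, 1 with the [psi-] pair summed and 5 under upper-quartile scaling (ADE5,7 and ADE16 lost, BAS1 gained as higher). In translational efficiency 2087 features were called, 985 to 3373 when a replicate was left out and 1016 with the [psi-] pair summed. Of the 10 genes 4 were called there, 1 to 9 when a replicate was left out, 1 with the [psi-] pair summed, 2 under RLE scaling and 1 under upper-quartile scaling. Over all features, upper-quartile factors called 2014 of 5135 in footprints and 2205 of 5437 in translational efficiency. RLE factors called 2129 of 5437 in translational efficiency. With DESeq2, and with 1 subtracted, 3 of the 10 genes were called in translational efficiency (ADE17 lost). Without the filter on low counts 5 were called (ADE4 gained). The cause of these changes was not tested. Upper-quartile factors moved the median log2 of all features from 0.02 to 0.17 in footprints and from 0.02 to 0.29 in translational efficiency. They also moved the calls that were higher in [PSI+] from 45.3% to 60.5% and from 46.7% to 61.4%, and DESeq2 gave 23.3% and 25.5%. With DESeq2, run without the filter over 6608 features, the median log2 of the 10 genes in footprints went from -0.54 to -0.71. In footprints and translational efficiency the sign of values that had not passed changed in 7 cases, and in mRNA the signs of ADE1, ADE16 and BAS1 changed by library totals, as given in the report. ADE4 footprints stood at -0.10 with DESeq2, and from -0.065 (without [PSI+] replicate 2) to 0.21 (without [PSI+] replicate 1) when a replicate was left out. ADE13 footprints stood at -0.14 with DESeq2, -0.10 without [PSI+] replicate 1 and -0.035 without [psi-] replicate 1. ADE2 translational efficiency stood at 0.030 with RLE and 0.19 with upper-quartile factors. The YNB over YPD median of the 10 genes, log2 0.95, was 0.95 over shared features, 0.91 relative to the all-feature median, and 0.81 and 1.08 with a single [PSI+] YPD replicate. The last 3 were chosen after seeing the data. No paired analysis was possible because the [PSI+] columns carry no replicate number and the YNB table holds condition means.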
